A study of Mus musculus with 6 samples.

Results

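Genes known for their expression in mesothelium were followed in lung buds of E11.5 mouse embryos, 9 among 19938 genes measured in all. They were Calb2, Upk1b, Gpm6a, Lrrn4, Upk3b, Bnc1, Msln, Wt1 and Rspo1, and each had 1 probe that names no other gene. They were chosen from a list of mesothelial genes with the values of these same DKO and control arrays in view, so their differences between the groups are given as a description, with no test of their own. In the 3 DKO samples both histone deacetylase genes were floxed in the presence of Cre (Shhcre:Hdac1fl/fl; Hdac2 fl/fl), and the 3 control samples had the Shhcre allele alone. All 6 samples were lung at E11.5 of mixed C57BL/6, 129X1 and 129S1 background, so both groups share the Cre allele. Shhcre places Cre recombinase at the Sonic hedgehog locus, which is active in the endoderm-derived epithelium of the lung. The question put to the arrays was which genes depend on these 2 histone deacetylases in the developing lung. RNA came from whole buds. The labels name biological replicates but give no number of embryos per sample, so p-values measure only the spread between these samples.

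Mesothelium is the sheet of flat epithelial cells that covers the lung, the heart and the walls of the body cavities. It arises from mesoderm, and in the embryo it is both a signalling layer and a source of mesenchymal cells. Its cells are usually recognised by a transcription factor, Wt1, together with surface proteins such as mesothelin and uroplakins and the cytoplasmic calcium-binding protein calretinin. Several of these genes are also used elsewhere: Calb2 and Gpm6a are neuronal genes as well, and Upk1b and Upk3b belong to the urothelium.

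The array summaries are log2 expression values, so a difference of 1 is a 2-fold change. Between the 6 arrays the medians lay within 7.87 to 7.89. The DKO arrays scattered more around their group mean over all genes (SD 0.0705 to 0.105) than the control arrays (0.0596 to 0.0645). Of the deleted genes, Hdac1 stood at 11.20, 11.23 and 11.23 on the DKO arrays, against 11.48, 11.49 and 11.52 on the control arrays, and fell by 0.28 (SE 0.05, n = 3 per group, limma adjusted p = 0.0193). Hdac2 averaged 11.74 ± 0.03 in DKO and 11.78 ± 0.08 in control (SD, n = 3 each), a difference of -0.04 (SE 0.06, adjusted p = 0.845). Whether these probes lie inside the deleted exons was not tested. Whole buds also hold cells outside the epithelium in which Shhcre is active, and their share of this RNA was not measured. Lung markers were present at 10.36 ± 0.14 in DKO and 10.55 ± 0.04 in control for Nkx2-1, of the epithelium, and 12.68 ± 0.10 in DKO and 12.75 ± 0.03 in control for Foxf1, of the mesenchyme (SD, n = 3 each). Across all genes, limma with Benjamini-Hochberg adjustment called 481 of 19938, or 2.41%, at an adjusted p under 0.05, with 1.03% higher and 1.38% lower in DKO.

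Within the mesothelial set, 3 of 9 genes were called higher in DKO and 0 were called lower, where 1.03% of all genes were called higher. Since the set was picked with this contrast known, nothing is read from that count. Calb2, Upk1b and Gpm6a were the 3. On 5 of 9 genes the 3 DKO values lay above the 3 control values, a position that 8.36% of all genes had. None of the 9 lay wholly below, against 10.4% of all genes. The median difference of the set was 0.12 and its mean 0.28, beside a median of 0.00 over all genes. A median of that size was not particular to the set: listed heart muscle, liver and endothelial genes had 0.15, 0.14 and 0.13. Set members ran from -0.05 for Rspo1 to 1.28 for Calb2. In whole buds, more cells of a type and more RNA per cell cannot be told apart.

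**Figure D1:**
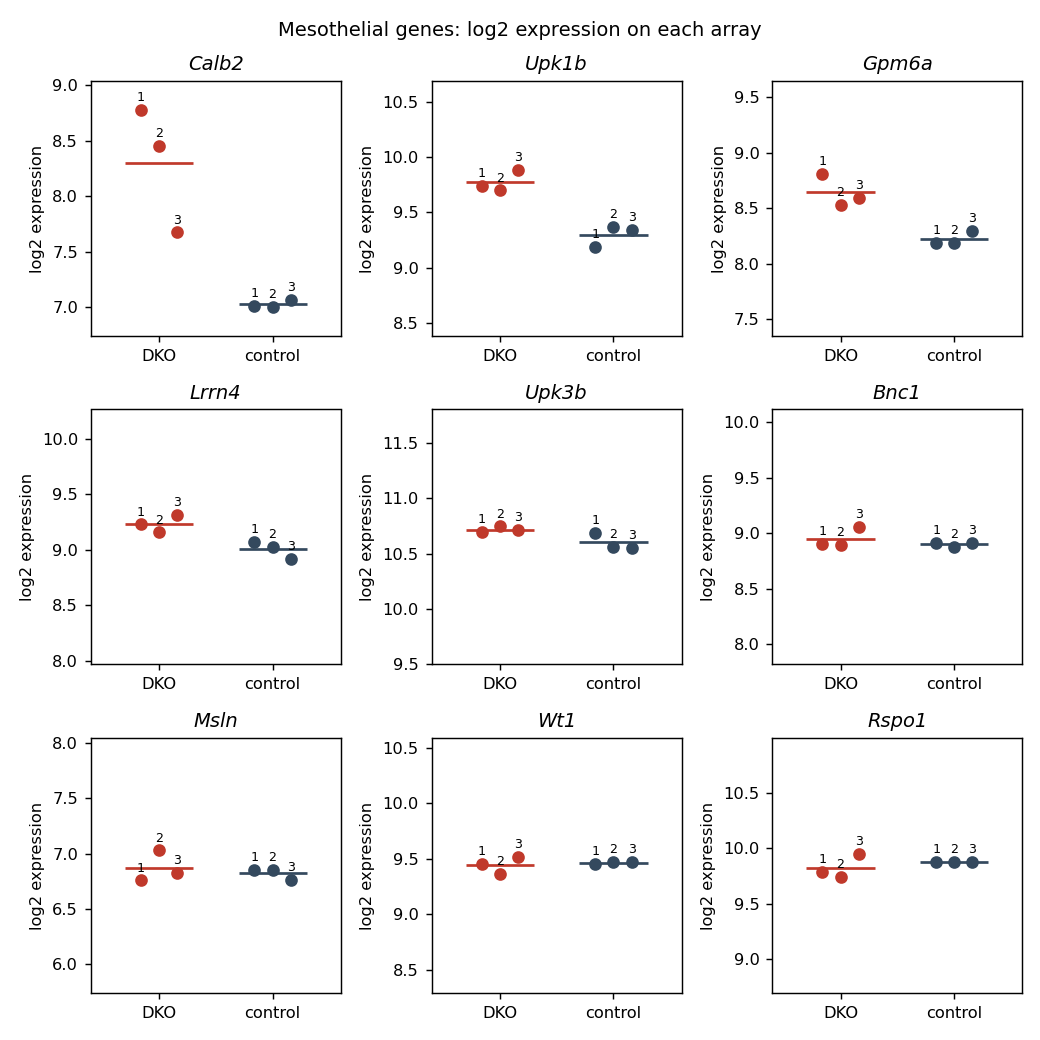
Log2 expression of the 9 genes on each array, with the DKO arrays at the left of each panel and the control arrays at the right; points carry their replicate number, lines are group means, and every panel spans the same number of log2 units. Calb2, Upk1b, Gpm6a, Lrrn4 and, narrowly, Upk3b have all 3 DKO points above all 3 control points, and the DKO points of Calb2 spread from 7.67 to 8.78.

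Calb2 encodes calretinin, an EF-hand protein that buffers calcium in the cytoplasm and is a standard stain for mesothelial cells. Its level was 8.78, 8.46 and 7.67 in DKO, against 7.01, 6.998 and 7.07 in control. The control values and that of DKO 3 lay below the array medians of 7.87 to 7.89. All DKO values lay above all control values, and the gap between the lowest DKO and the highest control value was 0.61. Calb2 averaged 8.30 ± 0.57 in DKO and 7.03 ± 0.04 in control (SD, n = 3 each), which is 2.42-fold higher in DKO (log2 difference 1.28, SE 0.22). That SE assumes a common variance in both groups, which these SDs do not share. By size, it was the rise ranked 2 among all 19938 genes. The DKO arrays disagreed on its extent: array 1 stood 1.76 above the control mean, array 2 stood 1.43 above it and array 3 stood 0.65 above it. Only 7 genes of the 19938 had a larger SD across the DKO arrays. The difference was 1.04 without DKO 1, 1.20 without DKO 2 and 1.59 without DKO 3. With arrays weighted by their overall scatter, which favours DKO 3, it was 0.81. The call was lost when control 1, 2 or 3 was left out, at differences of at least 1.26.

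Upk1b encodes a tetraspanin that pairs with a type I uroplakin in the plaques of the urothelium. It measured 9.74, 9.70 and 9.88 in DKO, against 9.19, 9.37 and 9.34 in control. The groups did not overlap, with a gap of 0.33, and each group spanned about the same range, 0.183 in DKO and 0.179 in control. Upk1b was 1.39-fold higher in DKO (log2 difference 0.47, SE 0.07). Its value held between 0.42 and 0.56 over 16 alternative settings, and its call was lost in 1 of them, when all 35556 probes of the table entered the fit.

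No other uroplakin gene was called. Upk3b, a type I uroplakin and one of the most used mesothelial genes in mouse, had 10.69, 10.74 and 10.71 in DKO, against 10.69, 10.56 and 10.55 in control. Lowest DKO and highest control value were 0.0069 apart, so the groups barely separated, and the difference of 0.12 (SE 0.06, 95% interval -0.01 to 0.24) was not called. Of the other 4 uroplakin genes, 0 were called by limma and 0 had an unadjusted p under 0.05. Their differences were -0.10 for Upk1a, 0.03 for Upk2, -0.01 for Upk3a and 0.08 for Upk3bl, with DKO and control values overlapping for each.

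Gpm6a encodes a proteolipid-family membrane glycoprotein, studied mainly in neurons, where it takes part in the growth of cell processes. Levels were 8.81, 8.53 and 8.60 in DKO, against 8.19, 8.18 and 8.30 in control. The DKO values were all higher, by a gap of 0.23, and array 1 was the highest of them, as for Calb2. Gpm6a was 1.34-fold higher in DKO (log2 difference 0.42, SE 0.08). Leaving out DKO 3 or any of the controls ended the call, at differences of 0.40 to 0.46. Its relative Gpm6b stood at 0.08 (SE 0.11, adjusted p = 0.863), and it too was highest on DKO 1, at 9.85.

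Lrrn4 encodes a transmembrane protein with leucine-rich repeats. It had 9.23, 9.16 and 9.32 in DKO, against 9.07, 9.03 and 8.92 in control. The groups were apart by 0.09 and both spanned about the same range. The difference of 0.23 (SE 0.06), a ratio of 1.17, was not called with all 6 arrays and was called without DKO 2 (0.27) and with array weights (0.29).

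For Wt1, Msln, Bnc1 and Rspo1 the DKO and control values overlapped. Wt1, the zinc finger transcription factor by which mesothelium is most often traced, measured 9.46, 9.36 and 9.52 in DKO, against 9.46, 9.47 and 9.47 in control, a difference of -0.02 (SE 0.06, 95% interval -0.15 to 0.11). Msln, the lipid-anchored surface protein mesothelin, measured 6.76, 7.03 and 6.83 in DKO, against 6.85, 6.85 and 6.76 in control, a difference of 0.05 (SE 0.07, interval -0.12 to 0.22). Msln was among the dimmest 30% of genes, below the array medians of 7.87 to 7.89, so its small difference says little. Bnc1, the zinc finger protein basonuclin 1, measured 8.90, 8.90 and 9.06 in DKO, against 8.92, 8.87 and 8.91 in control, a difference of 0.05 (SE 0.06, interval -0.08 to 0.18). Rspo1, a secreted protein that strengthens Wnt signalling, measured 9.78, 9.74 and 9.95 in DKO, against 9.88, 9.88 and 9.88 in control, a difference of -0.05 (SE 0.06, interval -0.20 to 0.09). Of these 4 genes, 3 were nearly constant over the controls, with SDs of 0.0087 for Wt1, 0.0013 for Rspo1 and 0.02 for Bnc1.

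**Figure D2:**
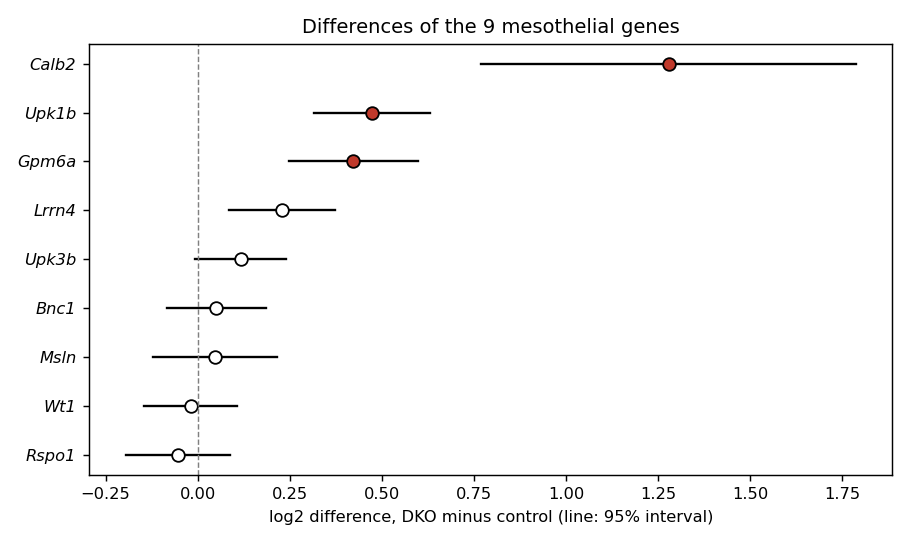
Log2 difference of each gene, DKO minus control, with its 95% interval from limma; filled points were called in the fit over all genes. Calb2 lies farthest to the right at 1.28 with the widest interval (0.77 to 1.79), and Wt1, Msln, Bnc1 and Rspo1 have intervals that include 0, as does Upk3b. The intervals assume a common variance in both groups, whereas the SD of Calb2 was 0.57 in DKO and 0.04 in control.

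The order of the DKO arrays was not the same for all members. DKO 3 gave the highest DKO value for 5 of 9 genes, namely Upk1b, Lrrn4, Bnc1, Wt1 and Rspo1, and DKO 2 gave the lowest value for each of them. Calb2 and Gpm6a had their highest value on DKO 1, and Upk3b and Msln on DKO 2. DKO 3 was thus the array nearest to the controls for Calb2 and the farthest from them for Upk1b, Lrrn4 and Bnc1. Summed on a linear scale, the 6 genes without a call gave 4423.0, 4405.9 and 4685.1 on DKO arrays 1 to 3, against 4425.4, 4269.5 and 4225.9 on control arrays 1 to 3. The 3 called genes gave 1743.0, 1550.5 and 1533.8 in DKO, against 1004.1, 1079.7 and 1096.5 in control. These 2 sums were split by the calls and have no test.

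**Figure D3:**
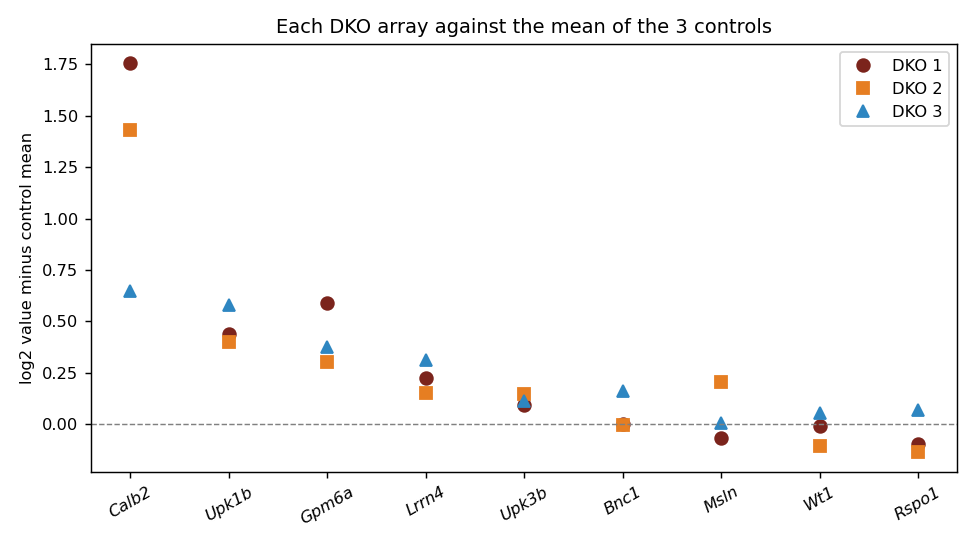
Value of each gene on each DKO array minus the mean of the 3 control arrays, in log2 units, with 1 marker per DKO array. DKO 1 is highest for Calb2 (1.76) and Gpm6a (0.59), while DKO 3 is highest for Upk1b (0.58), Lrrn4 (0.31) and Bnc1 (0.16).

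The promoters of 5 members, Upk3b, Gpm6a, Lrrn4, Rspo1 and Bnc1, were present in the RefSeq-based table (build GRCm38.p6, 250 bases before to 50 after the start of the gene), and Calb2, Upk1b, Wt1 and Msln had no entry. They are ordered here by the same array values: 3 of these genes had all DKO values above control and 2 did not. Of the 3, only Gpm6a was called, and the groups of Upk3b were apart by 0.0069. Whether a motif goes with a difference in expression was not tested. The 3 entries of the first kind and 1 of the second are printed 5′ to 3′ on the strand of the gene, with capitals for the motif GGAATG, the core recognised by TEAD transcription factors, or its reverse complement. Gpm6a lies on the plus strand at chr8:54779184-54779483, Lrrn4 on the minus strand at chr2:132880813-132881112, Upk3b on the plus strand at chr5:136038246-136038545 and Bnc1 on the minus strand at chr7:81992250-81992549.
Gpm6a: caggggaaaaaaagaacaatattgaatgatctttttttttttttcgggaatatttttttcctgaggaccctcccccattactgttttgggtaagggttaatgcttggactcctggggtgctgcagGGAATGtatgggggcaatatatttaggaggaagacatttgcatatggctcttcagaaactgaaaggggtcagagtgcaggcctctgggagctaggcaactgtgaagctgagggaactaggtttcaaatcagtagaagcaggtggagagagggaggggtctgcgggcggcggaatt
Lrrn4: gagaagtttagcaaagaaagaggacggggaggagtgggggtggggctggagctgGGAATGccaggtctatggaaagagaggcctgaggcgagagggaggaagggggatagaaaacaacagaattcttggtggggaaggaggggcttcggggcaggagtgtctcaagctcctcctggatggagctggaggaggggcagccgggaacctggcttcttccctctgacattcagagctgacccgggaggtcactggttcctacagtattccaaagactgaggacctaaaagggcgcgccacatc
Upk3b: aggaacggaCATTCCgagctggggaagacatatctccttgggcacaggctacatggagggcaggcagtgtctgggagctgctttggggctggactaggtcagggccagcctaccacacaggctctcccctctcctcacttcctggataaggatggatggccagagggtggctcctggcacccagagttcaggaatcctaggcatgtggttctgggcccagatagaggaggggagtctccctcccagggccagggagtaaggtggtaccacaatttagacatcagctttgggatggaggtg
Bnc1: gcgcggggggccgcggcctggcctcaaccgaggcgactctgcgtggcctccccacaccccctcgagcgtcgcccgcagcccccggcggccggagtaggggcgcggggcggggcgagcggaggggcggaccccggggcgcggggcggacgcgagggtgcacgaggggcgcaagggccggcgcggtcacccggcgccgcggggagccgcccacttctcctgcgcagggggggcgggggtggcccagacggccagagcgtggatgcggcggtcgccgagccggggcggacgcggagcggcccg

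GGAATG occurred 1 time in each of the first 3, with its first base at -125 in Gpm6a, at -196 in Lrrn4 and at -241, on the opposite strand, in Upk3b. It was found in neither Bnc1 nor Rspo1, nor at a second Gpm6a start (chr8:54954478-54954777). Searched on both strands, it is present in 14.7% of the 32851 promoters of the table. CpG dinucleotides numbered 4 in Gpm6a, 7 in Lrrn4 and 2 in Upk3b, against 29 in Rspo1 and 50 in Bnc1, where the median promoter has 7. Bnc1 also held GGGCGG, the GC box, at 6 places and Gpm6a at 1, a motif found in 35.7% of promoters. A WT1 core, GTGGGAG, was in none of the 5 members' promoters and in 9.73% of all promoters. No motif shown in capitals overlapped another of these motifs. These are letters in a window and not binding sites, and 5 genes allow no comparison.

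Among 14 further genes used as mesothelial markers, Lrp2 was called and rose, and the rest were not called. Lrp2, the endocytic receptor megalin, had 8.05, 8.11 and 8.12 in DKO, against 7.72, 7.76 and 7.77 in control (log2 difference 0.34, SE 0.05, adjusted p = 0.0079). Its groups did not overlap. The call was lost without control 1 (adjusted p = 0.0557). The list had 11 values above 0 and a median of 0.06, beside 0.00 for all genes. In limma 5 of its genes had an unadjusted p under 0.05, and the share of all genes under it was not computed. Muc16, which encodes the mucin that binds mesothelin, stood at 0.26 (SE 0.08, adjusted p = 0.197) with all DKO values above control. Podxl, a sialomucin of podocytes and mesothelium that is regulated by Wt1 in kidney, stood at 0.13 (SE 0.06, adjusted p = 0.384). Pdpn, podoplanin, stood at -0.16 (SE 0.05, adjusted p = 0.21), with all DKO values below control. Efemp1, an extracellular matrix protein, stood at -0.29 (SE 0.10, adjusted p = 0.255), with 8.33, 8.12 and 8.57 in DKO, against 8.73, 8.55 and 8.61 in control, and its groups overlapped. Fgf9, a growth factor that embryonic lung mesothelium secretes, stood at 0.01 (SE 0.07, adjusted p = 0.982).

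Of 10 genes of the epicardium and the coelomic lining, the close relatives of lung mesothelium, 1 rose and 1 fell. Sema3d, a secreted semaphorin of the epicardium, had 10.61, 10.53 and 10.28 in DKO, against 9.91, 9.90 and 9.92 in control (difference 0.56, SE 0.08, adjusted p = 0.00824). As with Calb2, array 3 was the lowest DKO array. The call of Sema3d was lost without control 2 and with all probes in the fit (adjusted p up to 0.0644). Aldh1a1, an enzyme that makes retinoic acid, had 6.56, 6.48 and 6.68 in DKO, against 7.27, 7.52 and 7.25 in control, and fell by 0.78 (SE 0.08, adjusted p = 0.00211). Aldh1a2, the main enzyme of that kind in embryonic mesothelium, stood at -0.06 (SE 0.06, adjusted p = 0.785), Tbx18 at -0.10 (SE 0.11, adjusted p = 0.809) and Tcf21 at -0.18 (SE 0.10, adjusted p = 0.529). The median of this list was -0.03.

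Relatives and signalling partners of single members showed calls in both directions. None of 4 EF-hand calcium buffers was called with Calb2, and 0 had an unadjusted p under 0.05 in limma. The nearest relative, Calb1, had 6.19, 6.05 and 5.49 in DKO, against 6.16, 6.28 and 6.12 in control (difference -0.28, SE 0.15, adjusted p = 0.535), with array 3 again the lowest. Of 8 genes of R-spondin signalling, Rspo2, the relative of Rspo1 made in lung mesenchyme, rose by 0.45 (SE 0.07, adjusted p = 0.0107), with values of 10.20, 10.08 and 10.06 in DKO, against 9.56, 9.78 and 9.65 in control. Its call was lost without control 1 or 3 and with all probes in the fit (adjusted p up to 0.0667). Rnf43, a ubiquitin ligase that R-spondins inhibit, fell by 0.64 (SE 0.06, adjusted p = 0.00106), and its companion Znrf3 was not called, at -0.24 (SE 0.05, adjusted p = 0.0521). The R-spondin receptors Lgr4, Lgr5 and Lgr6 were not called (0.03, -0.11 and -0.22). Of 5 relatives of Lrrn4 and Bnc1, Lrrn3 fell by 0.56 (SE 0.06, adjusted p = 0.00184). Bnc2 stood at -0.10 (SE 0.07, adjusted p = 0.672). Among 5 genes known as Wt1 targets, Podxl included, limma called 0 and 1 had an unadjusted p under 0.05, and their median was 0.08.

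**Figure D4:**
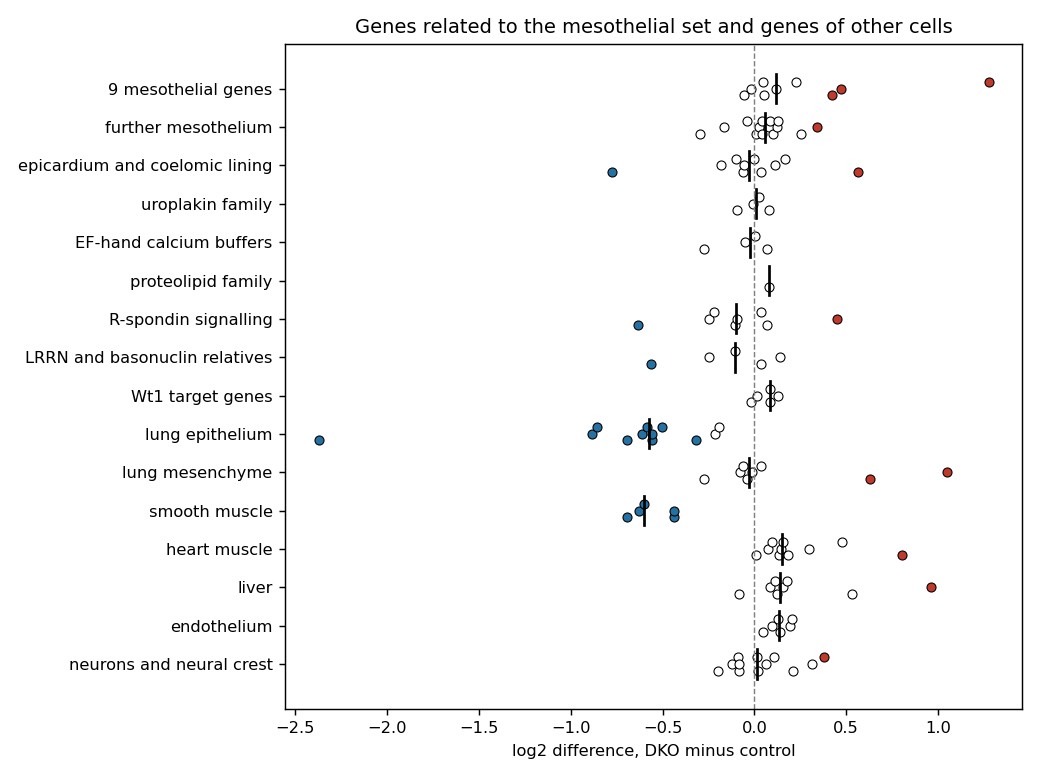
Log2 difference, DKO minus control, of every measured gene of each list, with 1 point per gene, filled where called in the fit over all genes, and a vertical bar at the list's median. The lists close to the mesothelial genes have medians of -0.10 to 0.08 and single calls on both sides, and the epithelial and smooth muscle points lie to the left, with medians of -0.57 and -0.60.

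Genes of other cell types in the dissected tissue were called as well, and their part in the mesothelial values was not tested. The listed lung epithelial genes were lower in DKO: of 12 genes, 10 fell, 0 rose, and the median was -0.57. The summed linear level of these 12 was 8406.6 to 9594.3 in DKO, against 13230.4 to 14508.5 in control. The largest fall on the list was that of Sftpc, surfactant protein C, at -2.37 (SE 0.18, limma adjusted p = 0.000354). Outside this list, limma called Sftpa1, surfactant protein A (0.83, adjusted p = 0.0135), and Cxcl15, a chemokine of lung epithelium (1.19, adjusted p = 0.000179), higher in DKO. Of the simple keratins, which mesothelium also makes, Krt18 fell by 0.86 (SE 0.05, adjusted p = 0.000135) and Krt8 fell by 0.56 (SE 0.06, adjusted p = 0.00269), while Krt19 stood at 0.08 (SE 0.05, adjusted p = 0.628). All 5 smooth muscle genes fell, with a median of -0.60 and summed levels of 4592.7 to 5803.4 in DKO, against 6872.9 to 7761.4 in control. All 5 of these calls were lost without control 2, without control 3 and with all probes in the fit, in each case at differences still below 0 (adjusted p up to 0.152 over all settings). Without control 1 the calls of Acta2, Actg2 and Myh11 were lost, and without DKO 3 those of Acta2, Myh11 and Tagln. Of 8 mesenchymal genes, Fgf10 (1.05, adjusted p = 0.00236) and Meox2 (0.63, adjusted p = 0.000646) rose, and the median was -0.03, with summed levels of 19589.1 to 19935.4 in DKO, against 19397.2 to 19683.6 in control.

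Heart and liver lie near the lung bud and are themselves covered by mesothelium, and genes of both organs were set beside the members. Of 10 heart muscle genes, all 10 values were above 0 and 1 was called, Myl7, the atrial myosin light chain (0.80, SE 0.08, adjusted p = 0.00163). Their summed level was 4364.4 to 5226.7 in DKO, against 3719.2 to 3970.7 in control, highest on DKO 1. Of 8 liver genes, 7 values were above 0 and 1 was called, Alb, serum albumin (0.96, SE 0.18, adjusted p = 0.0294). On 4 of the 8 all DKO values lay above control, a position that 8.36% of all genes had. Among them was Afp, at 0.53 (SE 0.14, adjusted p = 0.117). The sum was 1847.2 to 2247.0 in DKO, against 1589.6 to 1750.3 in control, highest on DKO 2. The call of Alb was lost without DKO 1, without control 1, 2 or 3, and with all probes in the fit (adjusted p up to 0.138). For 6 endothelial genes limma called 0, with 2 at an unadjusted p under 0.05, a median of 0.13 and sums of 7746.3 to 8837.4 in DKO, against 7221.6 to 7417.1 in control. RMA values have no zero, so no marker of these cell types can be given as absent.

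Neurons, which also express Calb2 and Gpm6a, were set beside the members too. Of 12 neuronal and neural crest genes, 7 values were above 0, and the median was 0.02. Dcx, a microtubule protein of young neurons, rose by 0.38 (SE 0.05, adjusted p = 0.00724), with 10.49, 10.57 and 10.55 in DKO, against 10.14, 10.12 and 10.22 in control. Snap25, a synaptic membrane protein, stood at 0.32 (SE 0.07, adjusted p = 0.0509). Tubb3 (0.06), Elavl3 (0.01), Elavl4 (-0.08), Prph (0.02) and the neural crest factor Sox10 (-0.20) were not called. The summed level was 3751.8 to 4225.1 in DKO, against 3384.7 to 3771.8 in control, so the groups overlapped, and it was highest on DKO 3. Whether neurons contribute to the Calb2 or Gpm6a values was not tested.

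Genes with the profile nearest to each called member were ranked by the root mean square distance between log2 values on the 6 arrays, each gene centred on its own mean. Predicted genes, clone names, pseudogenes, olfactory and vomeronasal receptors, small RNAs, Xist, Tsix and Y-linked genes were left out of the ranking. Such likeness includes the contrast by which the members were chosen and is given as a description. Nearest to Calb2 were Fgf10, a growth factor of lung mesenchyme (distance 0.23), Sftpa1, surfactant protein A (0.28), Gas6, a ligand of TAM receptors (0.28), Slc26a7, an anion transporter (0.29), and Cxcl15, a chemokine of lung epithelium (0.29). Fgf10 had 10.44, 10.11 and 9.91 in DKO, against 9.03, 9.14 and 9.14 in control, the same order of DKO arrays as Calb2. Slc26a7 had 8.09, 7.67 and 7.03 in DKO, against 6.94, 6.87 and 6.81 in control, and was not called, at 0.72 (SE 0.21, adjusted p = 0.152). Its spread over the DKO arrays, 1.06 between arrays 1 and 3, was close to the 1.11 of Calb2. By the same measure Gpm6a was ranked 75 and Upk1b 135 from Calb2, while Wt1 was ranked 11176 and Rspo1 14468.

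**Figure D5:**
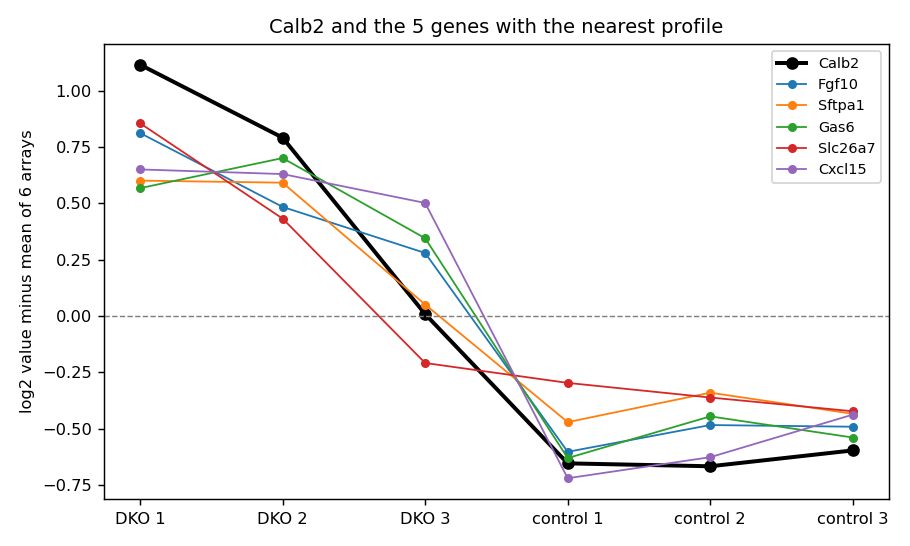
Log2 values of Calb2 and its 5 nearest genes on the 6 arrays, DKO at the left and control at the right, each gene centred on its own mean; lines join the points of 1 gene. Among the DKO arrays, Calb2, Fgf10, Sftpa1, Slc26a7 and Cxcl15 are highest on DKO 1 and lowest on DKO 3, with a drop of 1.11 for Calb2 and 0.15 for Cxcl15, and Gas6 is highest on DKO 2.

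Nearest to Upk1b were Arrdc4, an arrestin-domain protein (distance 0.03), Sec11c, a subunit of the signal peptidase (0.04), Adat2, a deaminase of transfer RNA (0.05), Bex2 (0.06) and Cpeb2, a regulator of messenger RNA translation (0.06), all called higher in DKO. Arrdc4 had 9.04, 9.03 and 9.13 in DKO, against 8.52, 8.64 and 8.65 in control, and like Upk1b it was lowest on control 1 among the controls and highest on DKO 3. Gpm6a was nearest to Cnksr2, a scaffold protein (0.05), Plxnc1, a semaphorin receptor (0.05), Itga1, an integrin subunit (0.06), Ccng1, cyclin G1 (0.06), and Mid2 (0.06). Of these, Itga1 (adjusted p = 0.0623) and Mid2 (adjusted p = 0.105) were not called. From Upk1b, Gpm6a was ranked 121 and Lrrn4 297 among the genes kept for the ranking.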

How the data were processed

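Log2 expression values were deposited by the authors for 35556 probe sets, 1 column for each of the 6 samples (3 DKO, 3 control). Total RNA, 100 ng per sample, was amplified, labelled with biotin and hybridised to Affymetrix MoGene 1.1 ST arrays, per the labels. Per the submitters' processing notes, the tools were oligo, the RMA method and limma, and neither versions nor settings are given. The log base is not stated in the file and was taken as 2 from RMA and from the range of values (3.42 to 14.27). Because RMA makes array distributions alike, a change in total RNA cannot be seen. No scanner files were used here, the build behind the probe sets is not given in the sources used here, and the number of arrays limits the precision.

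Probes were named from the platform annotation: 21789 had 1 gene, 1621 had several and 12146 were unnamed here. A look-up of Entrez identifiers in RefSeq (GRCm38.p6) matched 21698 of these probes and left every symbol as it was. The probe with the highest mean over the 6 arrays was used for each of 19938 genes. DKO and control were compared with limma 3.58.1 in R 4.3.3 (lmFit, eBayes, two-sided, group as the only term), with Benjamini-Hochberg adjustment over all 19938 genes and a threshold of 0.05. The script was tested on simulated data.

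The 9 genes, the other lists (111 of 115 further genes measured) and the naming rule were chosen with earlier results of these data known. Named were all members, Hdac1 and Hdac2, every called gene of the lists related to the members or up to 3 with the largest difference, marker genes set beside a member, and the 5 nearest profiles of each called member. Of the called epithelial and smooth muscle genes, only some are named. Other list genes are named with values seen. Counts of list genes at an unadjusted p under 0.05 have no share of all genes beside them, so nothing is read from them. Alternatives were a replicate block, trend or robust eBayes, array weights, a second quantile normalization, median centring, averaging probes, leaving out the dimmest 30% or 50%, all probes in the fit, and leaving out each array.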

Additional observations from a re-analysis of the deposited data

How the results depend on the processing

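Over 16 alternatives, 137 of 141 recomputed differences of the mesothelial genes moved by less than the pooled SD of their replicates. The other 4 all came with array weights: Calb2 at 0.81, Wt1 at 0.04, Rspo1 at 0.04 and Bnc1 at 0.13, of which Calb2 alone was called. That setting gave DKO 3 a weight of 4.09, against 0.531 for DKO 1 and 0.275 for DKO 2. Its DKO means, and so its calls, rest largely on DKO 3. Calls were made for Upk1b in 15 of 16 alternatives, for Calb2 in 11 of 15, for Gpm6a in 11 of 16 and for Lrrn4 in 2 of 16. The count of 3 members called became 0 with all 35556 probes in the limma fit. There the adjustment covers more probes, and the SEs of the 3 called genes also rose, for Calb2 from 0.22 to 0.26. When 1 array was left out, the count lay between 1 and 4. It was 1 without control 1, 2 or 3, where Upk1b was the one called. The 481 genes called became 725 with an intensity trend and 2003 with array weights. With all 35556 probes in the fit, 208 were called, a count of probes and not of genes. Leaving out 1 array gave 197 to 811 genes (197 without control 2, 215 without control 1 or 3, 317 without DKO 3, 811 without DKO 2). The 6 called genes of the lists related to the members became 11 with array weights. The 20 called genes of other cell types became 11 over all probes and 11 to 23 when 1 array was left out, with 11 without control 2 and 12 without control 3. The cause of these changes in the counts was not tested. The labels number the replicates 1 to 3 in both groups, and the deviations of same-numbered arrays from their group means correlated at -0.06, 0.05 and 0.16 over genes, so the numbers were not taken as pairs. With the replicate block 406 genes were called, and 3 members. The smooth muscle genes Acta2, Myh11 and Tagln were not called with it. Msln and Calb2 were removed with the dimmest 50% of genes, and Msln with the dimmest 30%.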
